A study of Drosophila melanogaster with 5 samples.

Results

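NetA (CG18657, X chromosome) and lea (CG5481, chromosome 2L, listed by RefSeq under the symbol robo2) are the axon guidance genes described here, 2 of 260 genes of a subtracted cDNA library that was spotted on nylon membranes. Their members were taken by gene name from every library spot of the 20 membranes, which gave 1 clone and 40 spots for NetA, and 4 clones and 70 spots for lea, out of 581 clones. Canton S wild type embryos of Drosophila melanogaster were picked by hand at 5 intervals of development, with no treatment. The interval S2-3 holds syncytial blastoderm embryos of stages 2 and 3, S5 holds the cellular blastoderm, S6-7 is gastrula, and S8-9 is followed by S10-12, each named for its stages. Each interval is 1 sample of RNA from whole embryos, amplified to SMART-cDNA (a PCR-amplified copy of the mRNA), labeled with 32P and hybridized to 4 membranes, A to D. Since no source gives separate embryo collections for the membranes, the p-values below measure only the spread between membranes. The library was enriched for cDNAs that are more abundant in gastrula than in syncytial embryos, so the clones had been selected for a rise of the kind compared here, and whole-embryo RNA cannot tell more expressing cells from more RNA per cell.

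Netrins are secreted ligands laid down along the path of growing axons. NetA, one of the fly netrins, is made by cells of the ventral midline of the embryonic central nervous system and attracts commissural axons through the receptor Frazzled, whereas the receptor Unc-5 mediates repulsion. The gene lea (leak, also called roundabout 2) encodes a transmembrane receptor for the midline repellent Slit. It acts with the other Robo receptors in keeping axons from crossing the midline and in placing longitudinal axon tracts, and it also acts in the tracheal system. The ligand is described first and the receptor after it.

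The level of a clone is its deposited net signal over the median that RP49, a ribosomal protein gene, had on that membrane, so that a level of 1 equals RP49. The net signal is not the raw mean minus the listed mean of the local background, since the value subtracted was 94.5% to 97.7% of that mean (medians of 20 membranes), and 71.5% to 109% of it for NetA spots. A spot passed the signal rule when its raw signal reached the listed background mean plus 1 SD. On the 20 membranes 22.7% to 94.4% of library spots passed, with medians over 4 membranes of 42.6% at S2-3 and of 63.3% to 77.6% in the later intervals. RP49 itself varied between membranes, with a median net signal of 0.0128 to 0.669 on the arbitrary scale of the scanner. Solvent blanks, which carry no cDNA, had a 95th percentile of 0.0263 to 0.667 of RP49. The cellularization gene Sry-alpha, used to check the staging, was at 2.45 ± 0.74 on the log2 scale at S5 and at -1.25 ± 0.82 at S6-7 (SD, n = 4 membranes each). At S2-3 it was measured on 1 membrane, at -2.36. Other genes read for this check were less clear. SNCF was at 1.44 ± 0.78 at S2-3, 2.64 ± 0.92 at S5 and 1.32 ± 0.89 at S6-7 (n = 4 each). Kr was at -1.32 ± 2.09 at S5 and highest at S10-12, at 0.21 ± 2.14 (n = 4 each). The gene h was measured on at most 2 membranes an interval. Membrane D has another layout, with 579 library clones against 295 on membranes A to C, and it stood apart from them in the levels of both genes.

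NetA was not measured at S2-3, where 0 of its 8 spots passed the signal rule, and it was measured on 7 of the other 16 membranes. Its signal, counted on every spot, is given below as measured, although most of it lay under the rule. At S2-3 the levels were 0.0868, 0.0769, 0.0780 and 0.434 on membranes A, B, C and D. At S5 they were 0.180, 0.365, 0.0923 and 0.727, of which those on B (1 spot) and D passed the rule. Membrane D carried the highest signal of the secreted ligand at both intervals. In gastrula embryos of S6-7 the levels were 0.172, 0.114, 0.04997 and 0.609, with A (1 spot) and D passing. At S8-9 they were 0.183, 0.379, 0.128 and 0.990, with D alone passing. At S10-12 they were 0.293, 0.487, 0.148 and 1.68, with A (1 spot) and D passing. Within each letter the S10-12 signal was the highest of the 5, while the ranges over the 4 membranes of all 5 intervals overlapped. With the listed background subtracted instead, this no longer held on B, with 0.307 at S8-9 and 0.218 at S10-12, and the signal on C at S2-3 was 0.00229. The 95th percentile of the solvent blanks over RP49 was also higher at S10-12 than at S2-3 on A to C. It was 0.0483 and then 0.270 on A, 0.0968 and 0.667 on B, and 0.0480 and 0.119 on C. On D it was 0.0414 and 0.0370. The S10-12 level of NetA on B, 0.487, was below the blank value there. The part of the blanks in the NetA signal on A to C was not tested.

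**Figure D1:**
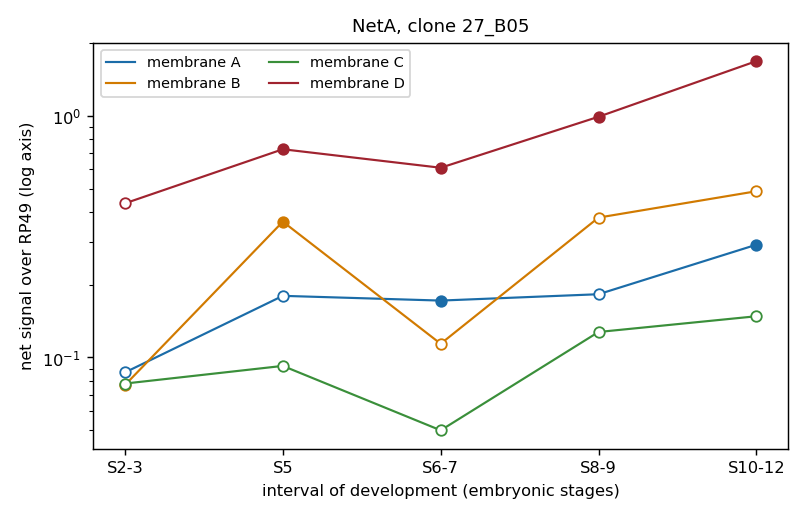
Levels of NetA (net signal over RP49, log axis) at the 5 intervals, with 1 line for each of the membranes A to D. Filled points had at least 1 of 2 spots past the signal rule and open points had none. Membrane D runs above the others, and on all 4 lines the highest point is S10-12, at 1.68 on D and 0.148 to 0.487 on A to C, of which those on B and C are open.

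On the log2 scale the mean NetA signal over 4 membranes, every spot counted, was -3.03 ± 1.22 at S2-3, then -1.96 ± 1.28, -2.68 ± 1.50, -1.71 ± 1.31 and -1.20 ± 1.48 in the 4 intervals that followed (SD, n = 4). The order of these means was S2-3, S6-7, S5, S8-9 and S10-12, with an SD within each interval of over 1 log2 unit. Membrane D was the only letter on which both NetA spots passed the rule in a later interval, which they did in all 4. On membrane D the NetA signal was 3.87-fold that of S2-3 at S10-12, 2.28-fold at S8-9, 1.40-fold at S6-7 and 1.67-fold at S5. The S2-3 signal there was under the rule, so these ratios are given as measured and set no lower bound. They rest on 1 membrane an interval and carry no test.

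Between the later intervals limma, fitted across all library features with the p-values of each comparison adjusted over all of them, tested NetA in 3 of 10 comparisons, and none passed an adjusted p of 0.05. NetA differed by 1.59 ± 1.17 (SE) on the log2 scale between S10-12 and S6-7 (adjusted p = 0.94), with means of -0.44 at S10-12 and -2.03 at S6-7 over 2 membranes each. The difference was 0.36 between S10-12 and S5 (adjusted p = 0.946) and -1.22 between S6-7 and S5 (adjusted p = 0.981). Few features passed there at all, with 0% higher in any of these comparisons and 0.962% lower among 208 features for S10-12 over S5. Against S5 as well, 0.485% were lower at S8-9 and 1.35% at S6-7.

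The membrane letter marks a shared layout, so it was also entered as a block. With the block and no signal rule, a combination chosen after the data were seen, NetA was higher than at S2-3 by 1.06 at S5 (limma, adjusted p = 0.0422), by 1.23 at S8-9 (adjusted p = 0.0183) and by 1.88 at S10-12 (adjusted p = 0.00637), and by 0.17 at S6-7 (adjusted p = 0.804). In that fit 34.9%, 28.9%, 38.2% and 44.7% of features were higher in the 4 later intervals, so that a call in it was common, and at S2-3 it rests on signals under the rule. At S10-12 only membranes A and D entered, since the duplicate spots of the others differed by a coefficient of variation over 0.5, and without either of them that comparison could not be fitted. Without membrane A the differences at S5 and S8-9 were 1.06 and 1.28 and no longer passed (adjusted p = 0.172 and 0.096), and without membrane B they were 0.67 and 0.96 (adjusted p = 0.311 and 0.0947). No pair of neighbours in the order of levels passed in this fit, with adjusted p-values of 0.804 for S6-7 over S2-3, 0.331 for S6-7 over S5, 0.919 for S8-9 over S5 and 0.803 for S10-12 over S8-9. Scaled to the 75th percentile of the library spots in place of RP49, the differences from S2-3 were -0.14, -0.57, 0.03 and 0.77 at the 4 later intervals, and none passed (adjusted p = 0.776, 0.375, 0.949 and 0.201).

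The median library clone was itself higher over RP49 in the later intervals than at S2-3. On the log2 scale and over the 4 letters, the change of the median clone from S2-3 was 0.35 to 2.03 at S5 and 0.21 to 2.03 at S6-7. It was 0.50 to 2.20 at S8-9 and 0.04 to 2.28 at S10-12, with membrane D the highest each time. The S2-3 signals of NetA were under the rule, so its changes from S2-3 are given only as measured. On D they were 0.74, 0.49, 1.19 and 1.95 at the 4 later intervals, each below the median clone. They exceeded 17.8%, 14.5%, 21.6% and 40.6% of the clones there. On A, B and C the S10-12 change exceeded 72.7%, 78.2% and 70.9% of clones, and the changes at the intervals before exceeded 25.9% to 73.6%. Between the later intervals membrane D measured NetA throughout. Relative to S5, NetA on D was at -0.25, 0.45 and 1.21 in the intervals that followed, on the log2 scale, and the median clone was at -0.035, 0.24 and 0.078. The change of the ligand clone from S5 to S10-12 exceeded that of 76.3% of 573 clones on D. On A, which measured NetA by 1 spot at both S6-7 and S10-12, it was higher at S10-12 by 0.77, and on D by 1.47.

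NetA spots sat on an uneven background. The SD of the local background was 48.9% of its mean (median over 30 spots of membranes A to C), against 31.6% for library spots there, and 39.4% on D, against 23.3%. That share exceeded 85.3% of library spots on A to C and 90.8% on D. Of the 40 NetA spots 11 passed the signal rule, 3 of 30 on A to C and 8 of 10 on D, beside 60.6% and 81.2% of library spots. By another measure, 28 of the 40 exceeded the 95th percentile of the solvent blanks of their membrane, 6 of 8 at S2-3 and 5 of 8 at S10-12. The share of all library spots above that percentile is not given here, so these counts have no reference.

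The Slit receptor gene lea was measured at all 5 intervals, and its picture depended on the membrane. One clone, 27_A10, was printed on all 4 membranes. On membrane D its level was 0.549 at S2-3, under the signal rule, and then 1.74, 3.09, 2.83 and 7.27 up to S10-12. On membrane A the same clone had 0.116, 0.0426, 0.189, 0.142 and 0.135 from S2-3 to S10-12. On B it had 0.0908, 0.0678, 0.173, 0.0802 and 0.0816, with no spot past the rule at S8-9 and S10-12. On C it had 0.115, 0.00799, 0.0891, 0.0943 and 0.0544, with none past it at S5 and S10-12. On D the level was higher in every later interval than at S2-3, with a coefficient of variation between duplicate spots of 0.0698 at S10-12, whereas A to C stayed under 0.19 throughout. With the listed background subtracted, the S2-3 signal on D was 0.199 and that at S10-12 was 7.16. Like NetA, this clone sat on an uneven background on D. The SD of the local background was 34.9% of its mean there (median over 10 spots), against 23.3% for library spots. That share exceeded 86.2% of library spots on D. On A to C it was 27.3%, against 31.6%, and exceeded 33.8% of library spots.

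The other 3 clones of lea were on membrane D alone. Clone 24_G10 had 0.165, 0.911, 0.821, 0.724 and 0.805 from S2-3 to S10-12. Clone 25_E02 had 0.160, 1.15, 1.27, 1.97 and 0.661. Clone 26_F10 had 0.0480 and 0.0823 at S2-3 and S5, both under the rule, and 0.320, 0.343 and 0.931 afterwards. Clones 24_G10 and 25_E02 passed the rule at S2-3, and at S10-12 they were higher by 4.89-fold and 4.14-fold. Clones 27_A10 and 26_F10 did not. At S10-12 clone 27_A10 was at 13.2-fold its S2-3 signal. Clone 26_F10 was at 12.4-fold the faintest passing signal of membrane D at S2-3. Neither ratio is a lower bound, since the S2-3 spots of these clones failed the rule. The time courses of the clones differed after S5. Clone 25_E02 was at 1.97 at S8-9 and 0.661 at S10-12, while 27_A10 and 26_F10 had their highest level at S10-12. The median of 559 clones on D was also higher, by 2.28 on the log2 scale, and clones 24_G10 and 25_E02 exceeded 50.3% and 43.1% of those clones in that change.

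**Figure D2:**
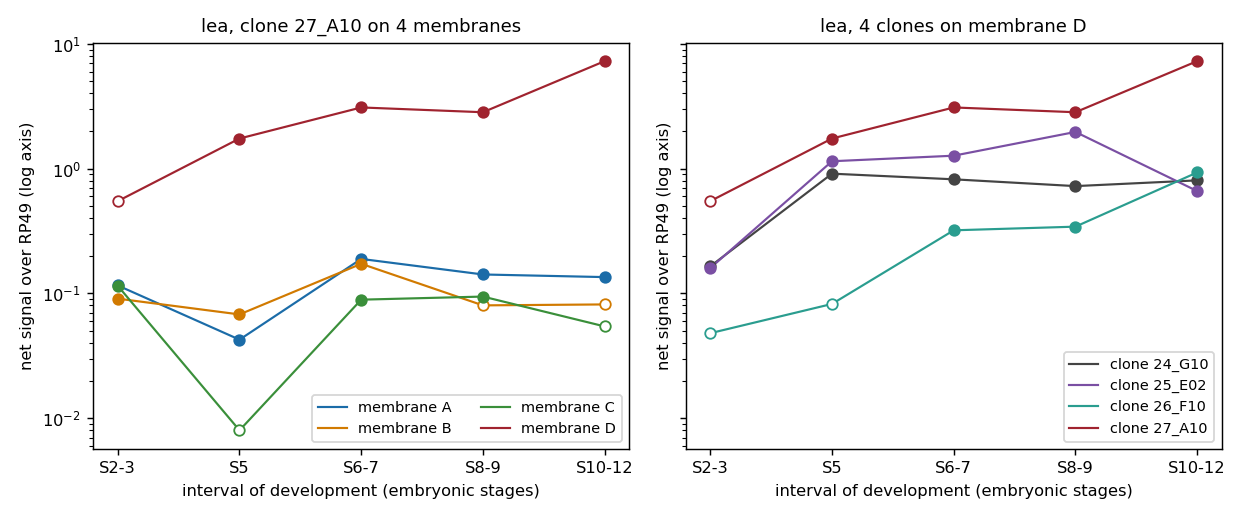
Levels of lea (net signal over RP49, log axis) at the 5 intervals, on the left clone 27_A10 on membranes A to D and on the right the 4 clones on membrane D. Filled points had at least 1 of 2 spots past the signal rule and open points had none. Clone 27_A10 reaches 7.27 on D at S10-12 and stays at 0.0544 to 0.135 on A to C.

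The gap between membranes was large for this clone even beside the rest of the library. At S6-7, where it passed the rule on all 4 letters (1 spot on B), clone 27_A10 was higher on D than on the mean of A to C by 4.44 on the log2 scale. The median of 291 clones printed on all letters was 1.70, and the gap exceeded that of 98.6% of them. On A to C, 0 of 6 spots of 27_A10 at S5 and 0 of 6 at S10-12 were above the 95th percentile of the solvent blanks, beside 5 of 6 at S2-3, 4 of 6 at S6-7 and 2 of 6 at S8-9. On D, 39 of the 40 lea spots were. The share of library spots above that percentile is not given here either. Membrane D differs from the others in layout, and the part of the layout in this gap was not tested.

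With the clones averaged, the lea level on the log2 scale was -3.03 ± 0.35 at S2-3 (SD, n = 4), followed by -2.36 ± 2.49 (n = 3), -1.87 ± 1.69 (n = 4), -1.40 ± 2.83 (n = 2) and -0.58 ± 2.62 (n = 2) in the later intervals. In limma lea differed from S2-3 by 0.67 ± 1.15 (SE) at S5 (adjusted p = 0.789), with a 95% confidence interval of -1.70 to 3.04. At S6-7 the difference was 1.16 ± 1.05 (adjusted p = 0.844, interval -1.01 to 3.33). At S8-9 it was 1.63 ± 1.32 (adjusted p = 0.495, interval -1.12 to 4.38) and at S10-12 it was 2.45 ± 1.31 (adjusted p = 0.339, interval -0.25 to 5.16). On membrane D the S2-3 mean holds only clones 24_G10 and 25_E02 and the S10-12 mean all 4, and with those clones alone on D the difference at S10-12 was 1.59 (adjusted p = 0.425). None of the 10 comparisons of intervals passed for lea in this fit, those of neighbouring intervals included. With no signal rule, the 75th percentile as scale and the block, the sign turned at S5 to -1.89 (adjusted p = 0.0416), and 13.4% of features were lower in that fit. In developmental order, 5.03%, 5.33%, 7.05% and 3.25% of all features were higher in the 4 later intervals than at S2-3, and 0% were lower, in the fit with the rule and RP49. The intervals are wide enough to hold both no change and a rise of several-fold.

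With the membrane letter as a block, lea was higher at S10-12 than at S2-3 by 1.82 ± 0.72 (adjusted p = 0.042), as were 45.5% of the 154 features tested, and its differences at S5, S6-7 and S8-9 did not pass (adjusted p = 0.693, 0.158 and 0.236). Of S10-12 only membranes A and D enter, where lea was at 0.185 on A, from 1 spot, and at 2.42 on D. The call was lost without membrane B (1.77, adjusted p = 0.126), with no signal rule (0.93, adjusted p = 0.445, and -0.017, adjusted p = 0.984, on the 75th percentile), with the listed background subtracted (1.71, adjusted p = 0.0587), with the 75th percentile as the scale (1.25, adjusted p = 0.199), with the mean of RP49 (1.52, adjusted p = 0.221), with RP49, actin and tubulin (1.85, adjusted p = 0.0593) and with clones 24_G10 and 25_E02 alone on D (1.00, adjusted p = 0.222). Both clones were past the signal rule on D at all 5 intervals, so that the last of these compares the same clones throughout there.

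Within a letter, changes of clone 27_A10 can be read where at least 1 spot passed the rule in both intervals. The levels average the duplicate spots of a membrane, passing or not. From S2-3 to S6-7 the change was 0.71 on A, 0.93 on B and -0.37 on C, where the median clone was at 0.98, 0.71 and 0.21. From S2-3 to S5 it was -1.44 on A and -0.42 on B, both below the median clone of the letter. The sign on B rested on a failing spot at 0. The S5 spot that passed there was at 0.136, above the S2-3 level of 0.0908. At S6-7 the passing spot on B was at 0.234 and the failing spot at 0.112. From S2-3 to S8-9 the change was 0.29 on A and -0.29 on C, and from S2-3 to S10-12 it was 0.22 on A. The median clone was higher each time, at 0.80, 0.50 and 0.87. With its S2-3 signal under the rule, the receptor clone on D was at 5.63-fold that signal at S6-7 and 3.17-fold at S5. Between S6-7 and S5 it was higher on the letters that measured it in both, by 2.15 on A, 1.35 on B and 0.83 on D, and above the median clone on each. That difference did not pass in the fits above. From S5 the change to S8-9 was 1.74 on A and 0.70 on D, and to S10-12 1.67 and 2.06, each above the median clone. From S6-7 to S8-9 it was -0.41 on A, 0.083 on C and -0.13 on D, each below the median clone. The change to S10-12 on A was -0.48 from S6-7 and -0.070 from S8-9, both below the median clone. On D these were 1.23 and 1.36, both above it.

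**Figure D3:**
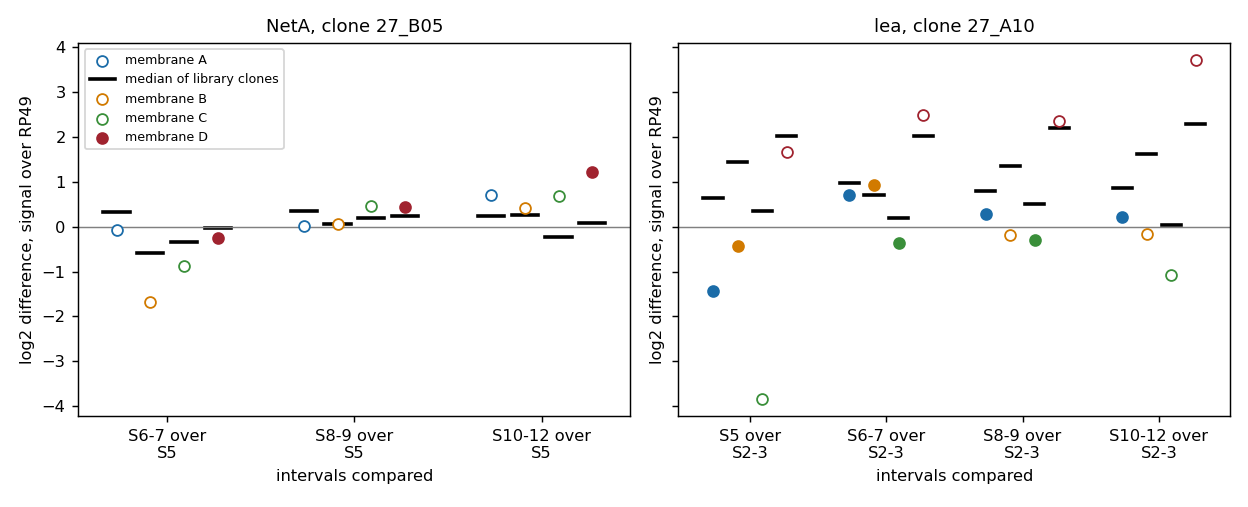
Log2 difference of the level over RP49 on each membrane letter, from S5 for NetA on the left and from S2-3 for clone 27_A10 of lea on the right, with black bars for the median of all library clones. Filled points passed the signal rule on at least 1 of 2 spots in both intervals and open points did not. NetA has filled points on D alone, at 1.21 for S10-12, and lea at S6-7 has them at 0.71 on A, 0.93 on B and -0.37 on C.

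Other genes of axon guidance and of the growing axon surface were read from a list of 65 names, of which 13 matched a library clone, the netrin and Robo genes included. The list also holds the nuclear factors Kr, tup and spen, which are not guidance or surface molecules. The counts and medians below include Kr and spen. In the 4 later intervals limma tested 9, 9, 8 and 9 of them against S2-3, and 2, 2, 2 and 1 were higher and 0 lower, beside the 5.03%, 5.33%, 7.05% and 3.25% of all features given above as higher. Their median difference was 0.93, 1.16, 1.62 and 2.27 on the log2 scale, and that of all features tested was 0.83, 0.56, 0.95 and 1.09. Among ligand and adhesion genes, Ama (Amalgam, a secreted immunoglobulin protein) was higher by 4.67 ± 0.78 (SE) at S5 and by 5.44 ± 0.88 at S10-12 (adjusted p = 6.0e-04 and 4.27e-04), and its partner Nrt (Neurotactin, a transmembrane adhesion protein) by 4.60 ± 0.86 at S5 (adjusted p = 7.55e-04). The cytoskeletal regulator ena (Enabled, which acts downstream of Robo receptors) was higher by 3.00 ± 0.82 at S6-7 and 3.11 ± 0.90 at S8-9 (adjusted p = 0.0277 and 0.0365).

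Members of the list that did not pass in this fit included trn (Tartan, a leucine-rich-repeat surface protein) at 1.86 at S10-12 (adjusted p = 0.339), spen (Split ends, an RNA-binding nuclear protein) at 1.38 (adjusted p = 0.407) and beat-IIIc (an immunoglobulin protein of the Beat family) at 0.77 (adjusted p = 0.52). The profilin gene chic was at -0.83 (adjusted p = 0.465), and Kr (the gap gene Krüppel) was at 2.46 (adjusted p = 0.339). With the membrane letter as a block 5, 4, 5 and 6 members were higher at the 4 intervals, beside 37.7%, 20.7%, 44.9% and 45.5% of all features. Those shares depend on the scale, as the 75th percentile with the block gave 12, 11, 12 and 14 features higher in place of 60, 35, 70 and 70. In the block fit on RP49 0 members and 1.26%, 0%, 0.641% and 2.6% of all features were lower than at S2-3. The Wnt receptor gene drl (Derailed), which like NetA was not tested against S2-3, was higher at S10-12 than at S6-7 by 1.27 ± 0.33 with the block (adjusted p = 0.0223), where 4.72% of features were. The LIM-homeodomain gene tup (Tailup) and the guanine exchange factor gene trio were not tested against S2-3 either. Other members also passed between later intervals with the block. Nrt differed from S5 by -2.52 at S8-9 and -2.41 at S10-12 (adjusted p = 0.0105 and 0.0131), and chic by -2.25 at S10-12 (adjusted p = 0.00597). Higher were ena at S6-7 over S5 (1.84, adjusted p = 0.00952) and Kr at S10-12 over S5 (1.52, adjusted p = 0.00931) and over S6-7 (1.63, adjusted p = 0.00539). None of these passed without the block.

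**Figure D4:**
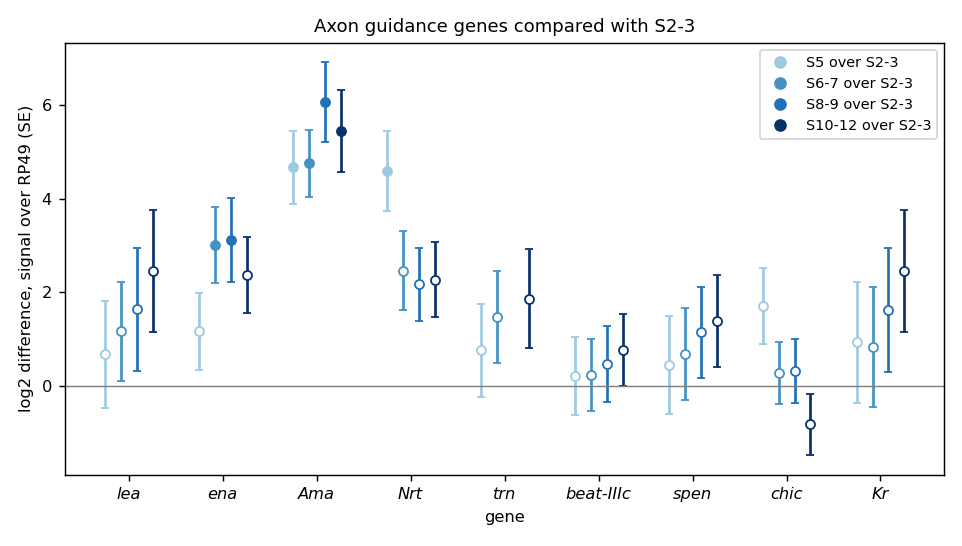
Log2 difference from S2-3 (signal over RP49, bars are the SE of the limma fit) of the 9 list members tested, for the 4 later intervals from left to right within each gene. Filled points passed an adjusted p of 0.05. Ama passed at all 4 intervals, ena at S6-7 and S8-9 and Nrt at S5, and lea, with a difference of 2.45 at S10-12, passed at none.

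The genes whose levels followed lea most closely over the membranes were tup (r = 0.93 over 12 membranes), CG14641 (r = 0.88 over 13) and spen (r = 0.84 over 13). These are Pearson correlations of log2 levels, after the median of each membrane and the mean of each letter had been subtracted, among 125 genes measured with lea on at least 12 membranes, and the points share membranes and 5 RNA samples. NetA was measured on too few membranes for such a list.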

How the data were processed

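The deposited intensity values hold, for each spot of 20 membranes, a raw mean, the local background with its SD, and the net intensity that the authors obtained in VersArray Analyzer. The software's subtraction differs from the listed background mean, so raw minus that mean was an added alternative. They are not normalized and their scale is arbitrary. Probes came from 2 labeling events, not assigned to membranes in the sources used here, and screens were scanned at 50 µm per pixel. Spots past 1 background SD with a coefficient of variation of duplicates of 0.5 or less were divided by the median RP49 signal of the membrane, values were averaged over the clones of each gene, and their log2 was fitted in limma 3.58.1 (R 4.3.3) with all 20 membranes and 10 comparisons of intervals. A feature was tested where 2 membranes measured it in both intervals, and p-values were adjusted by Benjamini-Hochberg. Tests are two-sided. The fit was also run on simulated data, but no result of that run is given here, so it is no check of the values reported.

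Members, lists and tests were chosen with earlier results of these data known. Genes named are NetA, lea, the list members and, for each, the 3 genes most alike over 12 or more membranes. Folds over an S2-3 signal under the rule are for clones with both spots past it in the later interval. They divide that level by the S2-3 level, or by the lowest passing signal of that membrane if brighter. They are not lower bounds, as the rule follows the local background of each spot. Of 40 pairs of membranes of 1 letter 35 correlated over 0.1 (-0.06 to 0.73), and the letter was treated as a batch of layout, with no pairing of embryos. The number of arrays limits the precision. The qcom filter, SAM and the authors' normalized table, whose rows carry no gene names here, were not used.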

Additional observations from a re-analysis of the deposited data

Results flagged for a closer look

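Membrane D stood apart from A to C in 6 of the 10 sets of 4 membranes looked at. The sets were 5 intervals for each of the clones of NetA and lea printed on all letters. In these 6 the gap to the nearest membrane, on levels not in log2, was beyond the 95% critical value of Dixon. That limit assumes 4 like membranes, whereas D has another layout, so no chance rate is given. The median library clone printed on all letters was itself higher on D than on the mean of A to C. On the log2 scale this was by 0.60 at S2-3 and by 1.70 to 1.83 later. In that difference 27_A10 exceeded 90.3% to 99.3% of those clones, and NetA 55.6% to 91.0%. The Dixon limit was not applied to the other clones. The NetA clone had 0.434 on D at S2-3, against 0.0769 to 0.0868 on A to C, all under the signal rule. For clone 27_A10 of lea the level on D was 0.549, 1.74, 3.09, 2.83 and 7.27 in developmental order, and no level on A to C exceeded 0.189. All 6 flags fall on the same membrane letter.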

How the results depend on the processing

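No comparison of lea with S2-3 passed as reported, and 108 of 124 other settings kept both its direction and its side of the threshold. At S5 the direction turned with the 75th percentile as scale (-0.21, and -0.37 with the block), quantile normalization (-0.021), no signal rule (-0.69 with and without the block), no signal rule with the 75th percentile (-1.89 with and without the block, adjusted p = 0.0416 with it), the mean of RP49 with the replicate block (-0.086) and, without membrane D, -0.55 (-0.70 with the block). No signal rule with the 75th percentile also gave -0.51 (-0.67 with the block) at S8-9 and, with the block, -0.017 at S10-12. At S10-12 the replicate block took lea past the threshold (1.82, adjusted p = 0.042). With the listed background subtracted from the raw signal it did not pass (1.71, adjusted p = 0.0587). Leaving out single membranes, with and without the block, gave, over S2-3 and in developmental order, -0.70 to 1.74, 0.51 to 1.74, 0.98 to 1.60 and 1.77 to 2.49, and lea passed only without C with the block (1.74 at S6-7 and 2.21 at S10-12). No such value exists at S10-12 without A or D, or at S8-9 without C or D, as 1 membrane remains. The ranges at S8-9 and S10-12 therefore leave out only membranes that did not measure lea in that interval.

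Between later intervals 25 of 173 settings turned the sign for lea and none passed. For S8-9 over S6-7 the values were -0.17 with RP49, actin and tubulin (-0.99 with the block), -0.12 with the 75th percentile (-0.55 with the block), -0.25 with quantiles, -0.44 with no signal rule (-0.47 with the block, -0.48 with the listed background besides, and -0.78 on the 75th percentile, -0.80 with the block), -0.061 with the listed background and the block, -0.0048 with no limit on duplicates, -0.14 with the block and -0.28 with the block and the mean of RP49. Normexp gave -0.49 for S6-7 over S5 and -0.016 for S8-9 over S5. Clones 24_G10 and 25_E02 with the block gave -0.047 for S10-12 over S6-7 and -0.098 for S10-12 over S8-9. With no signal rule and the block S10-12 over S6-7 was -0.12, -0.15 on the 75th percentile and -0.29 with the listed background. Leave-one-out ranges were -0.42 to 1.20 for S6-7 over S5, -0.13 to 0.74 for S8-9 over S5 and -0.12 to 0.39 for S8-9 over S6-7. Those with S8-9 leave out only A or B, which did not measure lea at S8-9.

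For NetA the sign of S6-7 over S5 turned in 1 of 71 settings of its 3 comparisons (0.39, RP49, actin and tubulin with the block). Leaving out single membranes could not test these comparisons, since without one that measured NetA 1 membrane remained in an interval. Only C, and for S10-12 over S6-7 also B, could be left out, and neither measured NetA in the intervals compared. The values were thus bound to stay as they were. They were -1.22 (-0.32 with the block) for S6-7 over S5 and 0.36 (1.27 with the block) for S10-12 over S5. For S10-12 over S6-7 they were 1.59. The 71 settings include these. With no signal rule NetA differed from S2-3 by 1.06, 0.49, 1.23 and 2.49, none passing. The block took S5 (1.06), S8-9 (1.23) and S10-12 (1.88) past the threshold, as it did with the listed background (1.59, 1.86 and 2.47), and the 75th percentile gave -0.14 at S5 with and without the block and -0.40 (-0.57 with the block) at S6-7. Without single membranes the block gave 0.67 to 1.36, -0.049 to 0.20, 0.96 to 1.43 and 1.66 to 2.10.

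Features higher than at S2-3 numbered 8, 9, 11 and 5 in the 4 later intervals, and 60, 35, 70 and 70 with the block. The block gave 12, 11, 12 and 14 on the 75th percentile, 13, 31, 51 and 38 on the mean of RP49 and 28, 20, 16 and 30 on RP49, actin and tubulin. Under the other planned settings they numbered 0 to 20, 0 to 17, 0 to 17 and 1 to 18, and without single membranes 0 to 10, 1 to 14, 1 to 18 and 0 to 13. Features lower numbered 0 in each, with 1, 0, 1 and 1 at an unadjusted p under 0.05, and 2, 0, 1 and 4 with the block. They numbered at most 4, 1, 3 and 3 under the other planned settings and at most 3, 0, 1 and 2 without single membranes. No signal rule on the 75th percentile gave 30, 9, 10 and 11 lower and 20, 18, 10 and 12 higher, and with the block 32, 16, 22 and 17 lower and 24, 23, 18 and 21 higher. With a rule of 2 background SDs 7 of 40 NetA and 35 of 70 lea spots passed, and 1 of 14 lea spots at S2-3 in place of 9. The comparison with the authors' own normalized table was not run. The causes of these shifts were not tested.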
